A study of Homo sapiens with 10 samples.

Results

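The 43 genes described here encode nuclear receptors other than the oestrogen receptor gene ESR1 and the progesterone receptor gene PGR. They are listed by name rather than by a threshold on a measured value, and make up 43 of the 20090 protein-coding genes in the annotation. For each gene the body and 10 kb on each side (hg19) were taken as its window, and the windows were read for H3K4me1 islands, for island cover of the gene start and for HER2 peaks. Nuclear receptors are transcription factors that carry a DNA-binding domain of zinc fingers and, in most members, a pocket for a small lipid-soluble ligand. Many of them bind DNA as dimers, often with a retinoid X receptor as partner, and recruit coactivators or corepressors according to the ligand they hold. In breast epithelium they are known for carrying steroid, retinoid and vitamin D signals to the genome.

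SKBR3 and BT474 are established lines of human breast cancer cells in which ERBB2, the gene of the receptor tyrosine kinase HER2, is amplified. H3K4me1, the single methylation of lysine 4 on histone H3 that is common at enhancers, was mapped by ChIP-seq in 2 libraries of each line. The labels describe those cells as asynchronous, whereas the text of the study describes them as exposed to EGF. HER2 was mapped by ChIP-exo in each line after 3 hours in 100 ng/ml EGF (epidermal growth factor) or in water as vehicle, in serum, with 1 peak list for each of the 4 conditions. No HER2 condition had a replicate, so the lists were compared as lists. Nothing in the labels says that the replicates of H3K4me1 came from separate cultures, so p-values measure the spread between those libraries, which may be technical.

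The 4 island files held between 15097156 and 18713926 reads. The windows of the genes used to check the line labels were as follows. ERBB2 had 12.6 and 12.6 scaled reads per kb in SKBR3 and 19.3 and 19.8 in BT474, and PGR, a gene of the hormone receptor positive line BT474, had 0.0857 and 0.0962 against 4.02 and 4.51. ESR1 was not called with scaling to the library (log2 -0.18) and was higher in BT474 when scaled to its surroundings, as described below (-2.21, edgeR adjusted p = 0.00112). Of the 12 genes in that check, 3 were higher in SKBR3 (28.8% of all windows tested), 7 were higher in BT474 (35.6%) and 2 were not called. Higher in SKBR3 were the luminal gene ELF3 and the basal keratins KRT5 and KRT14. Besides ERBB2 and PGR, the luminal genes GATA3, FOXA1 and KRT8 and the mesenchymal genes VIM and ZEB1 were higher in BT474. The basal and mesenchymal genes were thus split between the lines. When scaled to their surroundings, ELF3 (-0.24), ERBB2 (-0.07), FOXA1 (0.05) and KRT8 (-0.19) were no longer called. The other genes called with scaling to the library stayed called in the same direction. The files hold only reads inside islands, so a window listed at 0 is one without a called island.

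H3K4me1 is given below as island reads per kb of window per 1000000 island reads of the library, here called scaled reads per kb. Differences between lines are log2 values of SKBR3 minus BT474 with a standard error, from edgeR's quasi-likelihood test on the island reads of 2 libraries against 2, with p-values adjusted over all 17341 windows tested. The fit also applied TMM factors to the libraries, which scaled reads per kb do not include. A small log2 difference can therefore have the opposite sign to the scaled reads, as at PPARD. Of the members, 42 were tested and NR2F1 was not. H3K4me1 was higher in SKBR3 at 11 members, where 28.8% of all windows tested were called in that direction. It was higher in BT474 at 14 members, against 35.6% of all windows. Neither line's libraries overlapped those of the other at any of these 25 members, which adds little to a call from 2 libraries against 2. The same share over all called windows was not counted. Of the members tested, 17 were not called. The median difference was -0.02 over the members and -0.19 over all windows tested. The count for BT474 was 5 without BT474 replicate 1 and 7 without BT474 replicate 2, fits in which the remaining BT474 library was assumed to vary as the SKBR3 pair did. The calls at ESR2, ESRRA, THRA, NR2C1, NR2E1, NR2F2, NR5A1 and NR0B2 were lost without either of these libraries, and that at NR1I2 without replicate 1.

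Islands covered a median of 19.6% ± 1.12 (SD, n = 2) of the members' windows in SKBR3 and 13.8% ± 0.743 in BT474. Over all protein-coding windows the medians were 11.1% ± 0.435 and 12.8% ± 0.532. Among the members the densest windows were those of THRA, RARA and NR1D1 on chromosome 17 and the emptiest were those of NR2F1, NR1H4, NR5A1, RORB and NR2C1, as the plot of levels by library shows. ERBB2, which is amplified in both lines, lies on the same arm of chromosome 17, and copy number at these windows was not tested.

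**Figure D1:**
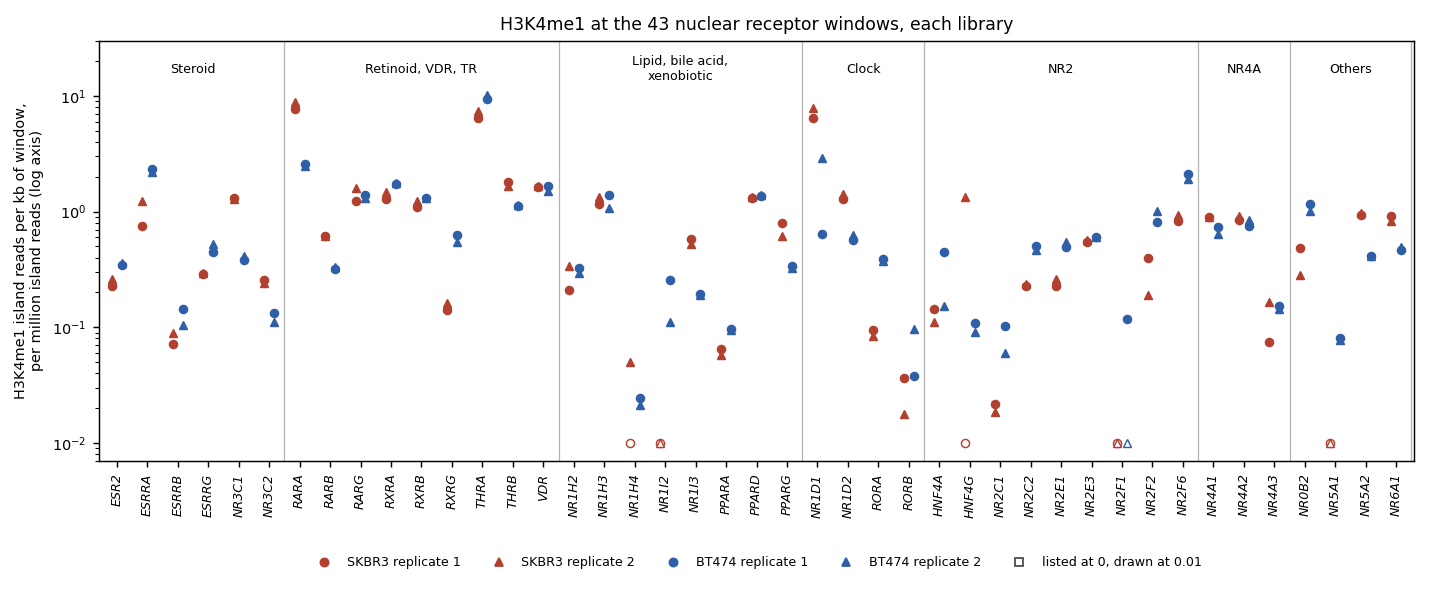
H3K4me1 island reads per kb of window per 1000000 island reads (log axis) for each of the 43 members, grouped by role, with SKBR3 in red and BT474 in blue, circles for replicate 1 and triangles for replicate 2. Open symbols drawn at 0.01 are libraries listed at 0. RARA lies at 7.70 and 8.93 in SKBR3 and at 2.57 and 2.49 in BT474, while VDR and PPARD have all 4 libraries close together.

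The number of copies of a locus and the amount of the mark per copy cannot be told apart from reads, and cancer cell lines often carry amplified segments. Each window was therefore also scaled to the island reads in the 2 Mb on either side of it. A copy number change with an edge inside those 2 Mb would not be removed by this scaling. With this regional scaling 12 members were higher in SKBR3, against 23.5% of all windows, and 9 were higher in BT474, against 36.1%. Of the 25 members called with scaling to the library, 19 were called in the same direction. ESR2, ESRRA, THRA, NR2E1, NR2F2 and NR5A2 were no longer called, and NR2E3 and NR4A2 were called only in this way. The plot of differences sets both scales side by side.

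**Figure D2:**
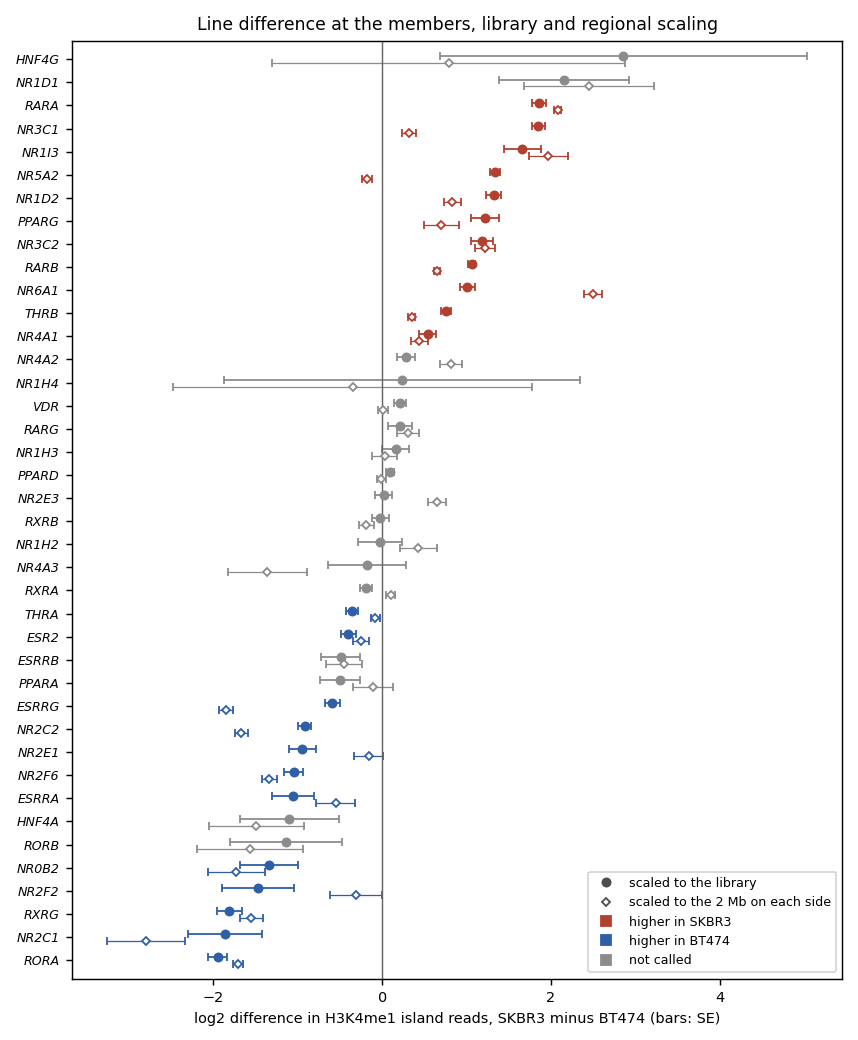
Log2 difference in H3K4me1 island reads between SKBR3 and BT474 (x axis, SKBR3 minus BT474, bars give the SE) at the 40 members with reads in both lines that were tested. Filled circles are scaled to the library and open diamonds to the 2 Mb on either side. Most pairs of symbols lie on the same side of 0, while NR3C1 moves from 1.85 to 0.32, NR5A2 from 1.34 to -0.18, NR6A1 from 1.01 to 2.50 and ESRRG from -0.59 to -1.85.

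The counts by role below stand against the shares of all windows, 28.8% for SKBR3 and 35.6% for BT474, and no role group was tested as a group. Among the steroid receptors and their relatives, 2 of 6 members were higher in SKBR3 and 3 were higher in BT474. NR3C1 (chr5:142657496-142815077, minus strand) encodes the glucocorticoid receptor, which binds cortisol. Its window had 1.32 and 1.29 scaled reads per kb in SKBR3 and 0.378 and 0.417 in BT474, a log2 difference of 1.85 (SE 0.08, edgeR adjusted p = 0.000651). The SKBR3 libraries were thus both above the BT474 libraries, and islands covered 46.9% of the window in each SKBR3 replicate and 12.5% and 13.2% in the BT474 replicates. The 2 Mb on either side of NR3C1 also differed, by 1.39 on the log2 scale, and relative to them the difference at the gene was 0.32 (SE 0.08, adjusted p = 0.0381). NR3C2, the mineralocorticoid receptor gene, was higher in SKBR3 as well, by 1.18 (SE 0.13, adjusted p = 0.00289), and its surroundings differed by -0.19. The 2 kb on either side of the NR3C2 start went the other way, with an island in both BT474 libraries (35.0% covered in each) and none in SKBR3, and were called higher in BT474 (adjusted p = 0.00982).

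ESRRG (chr1:216676588-217311097, minus strand) encodes an oestrogen-related receptor, an orphan receptor tied to oxidative metabolism. Scaled reads per kb were 0.288 and 0.296 in SKBR3 and 0.449 and 0.521 in BT474, so that both BT474 libraries were the higher ones. The difference was -0.59 (SE 0.09, edgeR adjusted p = 0.00709). The region around ESRRG went the other way, by 1.11 toward SKBR3, and with regional scaling the difference at the gene widened to -1.85 (SE 0.08, adjusted p = 0.00127). Of the other relatives, ESRRA and the oestrogen receptor beta gene ESR2 were higher in BT474 with scaling to the library alone, by -1.06 and -0.40, and ESRRB was not called.

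The receptors for retinoids, vitamin D and thyroid hormone included the densest windows. Of these 9 members, 3 were higher in SKBR3, 2 were higher in BT474 and 4 were not called. RARA (chr17:38465432-38513895, plus strand), a receptor for all-trans retinoic acid, had 7.70 and 8.93 scaled reads per kb in SKBR3 and 2.57 and 2.49 in BT474. This was the largest called difference toward SKBR3 among the members (1.86, SE 0.08, edgeR adjusted p = 0.000635). The 2 Mb around RARA differed by -0.37, and with regional scaling the difference was 2.08 (SE 0.04). Copy number within those 2 Mb, on the arm that carries ERBB2, was not tested. Islands covered 91.7% and 91.2% of the RARA window in SKBR3 and 66.3% and 62.8% in BT474.

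RARB (chr3:24729378-25639423, plus strand) encodes another retinoic acid receptor and is the longest of the member genes, at 910 kb. It had 0.615 and 0.613 scaled reads per kb in SKBR3 and 0.322 and 0.331 in BT474, with a difference of 1.06 (SE 0.04, edgeR adjusted p = 0.00061). THRB (chr3:24158644-24537247, minus strand), a thyroid hormone receptor gene next to RARB, had 1.79 and 1.66 against 1.12 and 1.13. Its difference of 0.76 (SE 0.06, adjusted p = 0.0019) became 0.35 with regional scaling and stayed called. RARG, the remaining retinoic acid receptor gene, did not pass the test (0.21, SE 0.14).

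The retinoid X receptors, which pair with many other members, had 1 call among 3 genes. RXRG (chr1:165370159-165414592, minus strand) had 0.142 and 0.162 scaled reads per kb in SKBR3 and 0.629 and 0.549 in BT474, and was higher in BT474 (-1.81, SE 0.15, edgeR adjusted p = 0.00184). RXRA (chr9:137208944-137332431, plus strand) had 1.28 and 1.48 in SKBR3 and 1.73 and 1.76 in BT474 and was not called (-0.19, SE 0.07). RXRB (chr6:33161365-33168442, minus strand) had 1.1 and 1.24 against 1.30 and 1.32 and was not called either (-0.02, SE 0.10).

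VDR (chr12:48235320-48336831, minus strand), the receptor for the active form of vitamin D, was densely marked in every library. The values were 1.64 and 1.66 scaled reads per kb in SKBR3 and 1.65 and 1.51 in BT474. These values lay within a narrow range, and the difference of 0.21 (SE 0.07, edgeR adjusted p = 0.0623) did not pass the threshold.

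Paralogous receptor genes lie together at 2 places, with THRA, NR1D1 and RARA on chromosome 17 and THRB, NR1D2 and RARB on chromosome 3. THRA (chr17:38214543-38250120, plus strand), the thyroid hormone receptor alpha gene, and NR1D1 (chr17:38249046-38256842, minus strand), which encodes the clock repressor REV-ERB alpha, overlap at their 3′ ends. In the part of THRA outside NR1D1 (34.5 kb) the libraries had 6.69 and 7.90 scaled reads per kb in SKBR3 and 11.7 and 11.8 in BT474. In the part of NR1D1 outside THRA (6.72 kb) they had 8.89 and 8.02 in SKBR3 and 0.825 and 0.872 in BT474. The order of the lines was thus opposite in these adjacent segments, and in each of them the replicates of a line lay close together. The 209 kb between NR1D1 and RARA, which hold other genes too, had 4.15 and 4.03 in SKBR3 against 0.715 and 0.694 in BT474.

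The BT474 island over the THRA start was 30.6 kb long with 9619 reads in replicate 1 and 40.6 kb long with 8580 reads in replicate 2, and it ended inside THRA in both. An island's reads are spread evenly over its length here, so a drop inside an island cannot be seen. This island reached the 10 kb flank of NR1D1 in BT474 replicate 2 and stopped short of it in replicate 1. The whole NR1D1 window had 6.48 and 7.79 scaled reads per kb in SKBR3 and 0.642 and 2.93 in BT474, and was not called (2.15, SE 0.77, edgeR adjusted p = 0.0747). The THRA window, which takes in all of NR1D1, was higher in BT474 by -0.36 (SE 0.07, adjusted p = 0.0155), a call lost with regional scaling and a value of 0.03 when islands that reach into the window were counted whole.

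**Figure D3:**
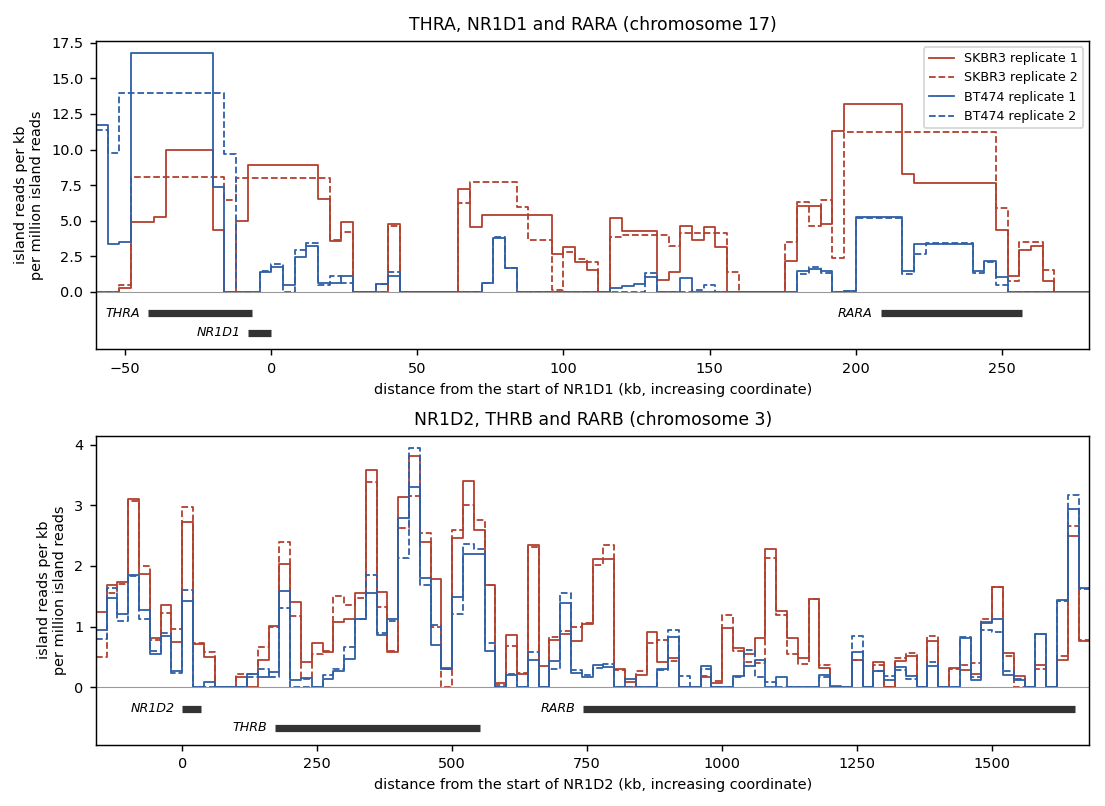
H3K4me1 island reads per kb per 1000000 island reads (y axis) along the THRA, NR1D1 and RARA cluster in bins of 4 kb and along the NR1D2, THRB and RARB cluster in bins of 20 kb, against the distance from the start of NR1D1 or NR1D2. Lines are the 4 libraries (solid for replicate 1, dashed for replicate 2) and black bars are gene bodies. BT474 is above SKBR3 over most of THRA but not at its 3′ end, and below SKBR3 over NR1D1, RARA and most marked bins between them, and SKBR3 is above BT474 over most of NR1D2 and THRB.

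On chromosome 3 all 3 paralogues were higher in SKBR3. NR1D2 (chr3:23986777-24022108, plus strand), which encodes REV-ERB beta, had 1.29 and 1.41 scaled reads per kb in SKBR3 and 0.571 and 0.624 in BT474, a difference of 1.32 (SE 0.09, edgeR adjusted p = 0.00127). The surroundings differed by 0.34, 0.26 and 0.26 for NR1D2, THRB and RARB, and all 3 stayed called with regional scaling, at 0.83, 0.35 and 0.65.

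The other clock members are the ROR genes, which encode activators that use the same DNA elements as the REV-ERB repressors. RORA (chr15:60780483-61521501, minus strand) had 0.0956 and 0.0834 scaled reads per kb in SKBR3 and 0.392 and 0.372 in BT474. Both BT474 libraries were above both SKBR3 libraries (-1.95, SE 0.11, edgeR adjusted p = 0.000903), and the difference was -1.71 with regional scaling. Islands covered 3.83% and 3.46% of this 761 kb window in SKBR3 and 14.3% and 13.3% in BT474. RORB was sparse in all 4 libraries and was not called.

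Among the 8 sensors of lipids, bile acids and foreign compounds, 2 were higher in SKBR3, 1 was higher in BT474 and 5 were not called. PPARG (chr3:12328867-12475855, plus strand), a fatty acid receptor that drives fat cell differentiation, had 0.793 and 0.610 scaled reads per kb in SKBR3 and 0.340 and 0.324 in BT474. The difference of 1.22 (SE 0.17, edgeR adjusted p = 0.00547) was 0.70 with regional scaling (adjusted p = 0.0492). NR1I3 (chr1:161199456-161208034, minus strand), the xenobiotic receptor known as CAR, had 0.580 and 0.526 in SKBR3 and 0.194 and 0.192 in BT474. Its difference was 1.66 (SE 0.22, adjusted p = 0.00469), in a window of 28.6 kb that it shares with APOA2, FCER1G, TOMM40L and an unnamed gene model.

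NR1I2 (chr3:119499331-119537334, plus strand), the pregnane X receptor, was called in the opposite direction to NR1I3, its closest relative in the family. It was listed at 0 in both SKBR3 libraries and had 280 and 96 island reads in BT474. Set against a nominal 3 reads per library in SKBR3, BT474 was 55.0-fold higher by the mean of its libraries (edgeR adjusted p = 0.00679). This fold is not a lower bound, because reads outside islands are not listed. The BT474 replicates themselves differed, at 0.258 and 0.110 scaled reads per kb, and gave folds of 77.2 and 32.8 against the same 3 reads. The call was lost without BT474 replicate 1 (adjusted p = 0.148) and with the replicate number as a block (0.0538). Part of the window belongs to GSK3B and another gene model.

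The remaining sensors were at similar levels in both lines or too sparse to tell. PPARD (chr6:35310335-35395968, plus strand), the broadly expressed fatty acid receptor of the PPAR family, had 1.30 and 1.35 scaled reads per kb in SKBR3 and 1.37 and 1.38 in BT474 (log2 0.09 with the TMM factors of the fit, SE 0.05). NR1H2 (chr19:50832910-50886645, plus strand), an oxysterol receptor, had 0.212 and 0.342 against 0.323 and 0.297 (-0.03, SE 0.26). PPARA (chr22:46546424-46639652, plus strand), which controls fatty acid oxidation in liver, had 0.0644 and 0.0577 against 0.0958 and 0.0954 (-0.50, SE 0.24). NR1H4 (chr12:100867486-100958192, plus strand), the bile acid receptor, had 0 and 0.0501 in SKBR3 and 0.0246 and 0.0215 in BT474, so that the spread within SKBR3 was wider than the gap between the lines.

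In the NR2 family no member was higher in SKBR3, 5 of 9 were higher in BT474, 3 were not called and NR2F1 was not tested. Of the 5, NR2E1 and NR2F2 were lost with regional scaling, NR2C1 turned sign without islands under 2 kb, and NR2C2 and NR2F6 kept their calls under both. These orphan receptors include the HNF4 factors of liver and gut and the COUP-TF repressors. NR2F2 (chr15:96869167-96883492, plus strand), a COUP-TF gene, had 0.401 and 0.190 scaled reads per kb in SKBR3 and 0.814 and 1.01 in BT474. The difference was -1.47 (SE 0.43, edgeR adjusted p = 0.0458), while the 2 Mb on either side differed by -1.34, and with regional scaling the value was -0.31 and not called. NR2F6, another COUP-TF relative, was higher in BT474 on both scales, by -1.05 and -1.34. NR2C2, a testicular receptor gene, was likewise higher on both, by -0.92 and -1.67.

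NR2C1 (chr12:95414005-95467404, minus strand), the other testicular receptor gene, rested on few reads, 25 and 21 in SKBR3 and 141 and 67 in BT474. Its difference of -1.86 (SE 0.44, edgeR adjusted p = 0.0255) turned to 1.28, not called, when islands under 2 kb were left out. NR2E1 (chr6:108487226-108510009, plus strand), a repressor of neural stem cells, had 0.229 and 0.259 scaled reads per kb in SKBR3 and 0.497 and 0.542 in BT474 (-0.95, SE 0.16, adjusted p = 0.00952). Its region differed by -0.92, and the call was lost with regional scaling. HNF4G had no island in SKBR3 replicate 1 and an island of 36.4 kb with 3954 reads over its start in replicate 2, against 362 and 248 reads in the window in BT474, and was not called.

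The NR4A receptors are orphan factors that many stimuli induce within a short time. NR4A1 (chr12:52416616-52453291, plus strand) had 0.898 and 0.904 scaled reads per kb in SKBR3 and 0.734 and 0.637 in BT474. It was higher in SKBR3 by 0.54 (SE 0.10, edgeR adjusted p = 0.0145), and by 0.44 with regional scaling, and the call was lost without BT474 replicate 2 (adjusted p = 0.0731). NR4A2 and NR4A3 were not called with scaling to the library, at 0.28 and -0.18.

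The last 4 members divided evenly, with 2 higher in each line. NR5A2 (chr1:199996742-200146548, plus strand), the orphan receptor LRH-1 of liver and ovary, had 0.932 and 0.967 scaled reads per kb in SKBR3 and 0.413 and 0.416 in BT474. The difference was 1.34 (SE 0.06, edgeR adjusted p = 0.000651), but the 2 Mb on either side differed by 1.37 and with regional scaling the sign turned (-0.18, SE 0.06, adjusted p = 0.0577). NR6A1 (chr9:127279554-127533590, minus strand), the germ cell nuclear factor, showed the reverse. It had 0.915 and 0.836 in SKBR3 and 0.465 and 0.498 in BT474 (1.01, SE 0.09, adjusted p = 0.00211) within a region that differed by -1.64, and with regional scaling the difference was 2.50. The 2 kb on either side of the NR6A1 start were called higher in BT474 instead (-2.77, adjusted p = 0.0228).

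NR5A1 (chr9:127243515-127269699, minus strand), the steroidogenic factor 1 gene, lies beside NR6A1 and was higher in the other line. It was listed at 0 in both SKBR3 libraries and had 70 and 54 reads in BT474 (edgeR adjusted p = 0.00282). Against a nominal 3 reads per library in SKBR3 this was 18.9-fold higher, which is again not a lower bound. The reads at NR5A1 were few, and the call was lost without BT474 replicate 1 (adjusted p = 0.278), without BT474 replicate 2 (0.279) and with the replicate number as a block (0.292). Its window overlaps that of NR6A1. NR0B2, the corepressor SHP that lacks a DNA-binding domain, was higher in BT474 (-1.34, SE 0.34, adjusted p = 0.0304).

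The annotated start of the gene, its outermost 5′ base, lay in an island of both SKBR3 replicates at 10 members, where 10.7% of all genes did so. It lay in an island of both BT474 replicates at 9 members, against 13.8% of all genes. At 7 members, VDR, RARA, RARG, THRA, NR1D1, NR1H2 and NR1H3, the start was covered in all 4 libraries. At the start of the transcript marked canonical in the annotation, of these only RARA, NR1D1 and NR1H3 were covered in all 4, and NR1H2 in none. NR3C1 was covered in both SKBR3 libraries and in neither BT474 library, with 8 of its 16 transcript starts covered in both SKBR3 replicates and 0 in BT474. Its canonical start was in no island. The shares of all genes with a start covered in all 4 libraries, in a single line or in none were not counted. RXRG and NR0B2 were covered in both BT474 libraries and in neither SKBR3 library. At 26 members the gene start was outside islands in every library, among them ESRRG, whose 23 transcript starts include 15 that were covered in both SKBR3 replicates and 17 in both BT474 replicates. When any annotated transcript start was accepted, 19 members counted in SKBR3 and 21 in BT474, against 29.0% and 36.6% of all genes.

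HER2 peaks lay in the windows of 29 members in BT474 after EGF, where 44.6% of all genes had a peak. The numbers were 13 members in BT474 with vehicle (19.7% of all genes), 4 in SKBR3 after EGF (6.73%) and 3 in SKBR3 with vehicle (6.31%). The lists themselves held 29326, 8559, 2520 and 2596 peaks in that order. Each member with a peak in any list had one in BT474 after EGF, and 14 members had none in any list, among them RARA, RARG and NR1D2. The members' windows were longer than usual, with a median of 73.4 kb against 47.3 kb over all genes. Per Mb of window the members had 11.1 peaks in BT474 after EGF (95% exact Poisson interval 8.70 to 13.9) against 10.7 over all genes, and 3.14 (1.95 to 4.81) against 3.15 in BT474 with vehicle. In SKBR3 the values were 0.898 (0.330 to 1.96) against 0.912 after EGF and 0.599 (0.163 to 1.53) against 0.898 with vehicle. The intervals cover counting error only, and each of them held the value of all genes.

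**Figure D4:**
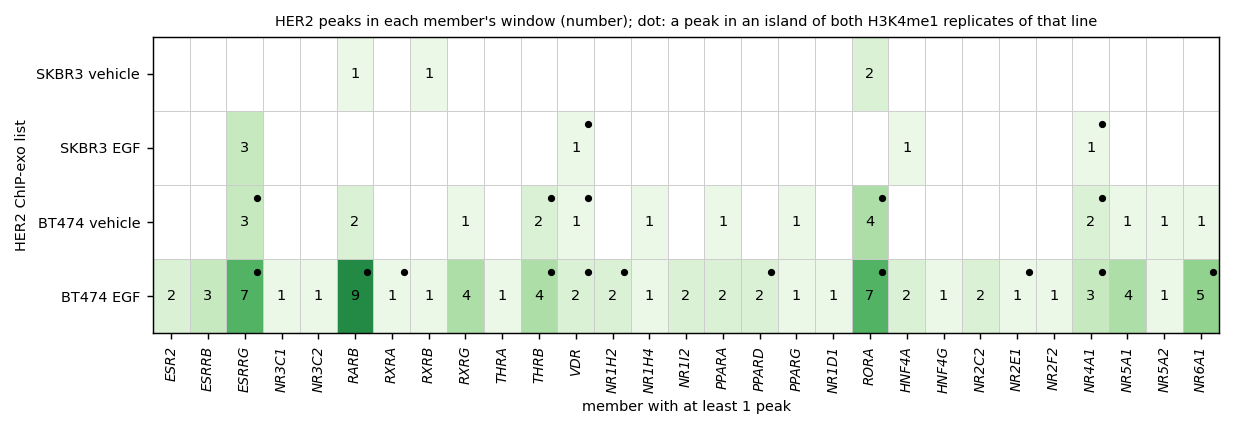
Number of HER2 peaks in the window of each of the 29 members with a peak (columns) in each of the 4 lists (rows), darker green for more peaks. A dot marks a member with a peak that lies in an H3K4me1 island of both replicates of the same line. The BT474 EGF row is filled throughout, with 9 peaks at RARB and 7 each at ESRRG and RORA, and the SKBR3 rows hold 3 and 4 members.

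The 3 longest windows had the most peaks. RARB, at 930 kb, had 9 peaks in BT474 after EGF, 2 with vehicle and 1 in SKBR3 with vehicle. RORA had 7, 4 and 2 in the same lists, and ESRRG had 7 and 3 in the BT474 lists and 3 in SKBR3 after EGF. Of windows over 180 kb, 8 of 9 members had a peak in BT474 after EGF, against 90.4% of genes with such windows. Of windows between 47.3 and 180 kb the numbers were 16 of 20 members and 53.6% of genes, and of shorter windows 5 of 14 members and 28.2% of genes.

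The members' peaks lay mostly in introns, 57 of 72 distinct peaks in BT474 after EGF and 19 of 21 with vehicle. The share in introns was not counted for the other peaks, so this is not shown to be particular to the members. For its whole lists the study reports no enrichment of HER2 at kinds of genomic feature. The overlapping windows of THRA and NR1D1 shared 1 of these peaks, and those of NR5A1 and NR6A1 shared another. In BT474 after EGF 13 of the 72 distinct peaks (18.1%) lay in an H3K4me1 island of both BT474 replicates, against 13.7% of the list's peaks in all gene windows. With vehicle they were 7 of 21 (33.3%) against 15%. In SKBR3 the numbers were 2 of 6 after EGF, against 16.8%, and 0 of 4 with vehicle, against 16.3%. The 11 members with such a peak were ESRRG, VDR, RARB, RXRA, THRB, PPARD, NR1H2, RORA, NR2E1, NR4A1 and NR6A1.

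At 14 members, peaks of different lists overlapped in position, at 21 sites in all. At 20 of them the vehicle and EGF lists of BT474 shared the site, and at none did the vehicle and EGF lists of SKBR3. The exception was a site 10.9 kb from the RXRB start, beyond the gene's 3′ end, which was found in SKBR3 with vehicle and in BT474 after EGF. The members held only 4 SKBR3 peaks with vehicle and 6 after EGF. For the whole lists the study also reports a small overlap in SKBR3, and most BT474 vehicle sites again after EGF. It found most SKBR3 EGF peaks in BT474 as well, so these counts are not particular to the members. Sites in 3 lists (both BT474 lists and SKBR3 after EGF) numbered 4, and their shared bases are shown because they are the positions that recurred across lines. They were read from GRCh37 on the plus strand. Capitals mark CGTNTGC (N is any base) or its reverse complement, and AGGTCA, the hexamer that many nuclear receptors bind, or its reverse complement. The NR4A1 site is cut at 300 bases.
ESRRG, intron, chr1:216728866-216729065: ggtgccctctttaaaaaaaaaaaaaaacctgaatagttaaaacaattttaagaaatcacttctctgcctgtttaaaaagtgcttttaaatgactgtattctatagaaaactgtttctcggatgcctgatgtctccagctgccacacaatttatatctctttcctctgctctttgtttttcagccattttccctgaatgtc
ESRRG, intron, chr1:216799126-216799363: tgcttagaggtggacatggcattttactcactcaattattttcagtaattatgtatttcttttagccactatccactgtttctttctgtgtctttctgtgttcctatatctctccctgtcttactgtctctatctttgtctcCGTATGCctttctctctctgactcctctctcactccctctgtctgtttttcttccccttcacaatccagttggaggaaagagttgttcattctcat
VDR, upstream, chr12:48346353-48346552: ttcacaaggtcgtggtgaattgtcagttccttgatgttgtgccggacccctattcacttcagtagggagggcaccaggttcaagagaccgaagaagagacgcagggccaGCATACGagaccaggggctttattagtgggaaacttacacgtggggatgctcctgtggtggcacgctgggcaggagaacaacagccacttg
NR4A1, intron, chr12:52419961-52420260: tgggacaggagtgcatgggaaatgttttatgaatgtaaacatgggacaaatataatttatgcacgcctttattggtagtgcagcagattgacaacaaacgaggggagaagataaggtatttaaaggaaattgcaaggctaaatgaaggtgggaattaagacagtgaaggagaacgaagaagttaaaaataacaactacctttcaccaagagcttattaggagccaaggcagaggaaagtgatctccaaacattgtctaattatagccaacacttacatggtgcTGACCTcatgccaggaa

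The VDR site lay 9.62 kb upstream of the gene start, inside an H3K4me1 island of both replicates in both lines. Scores are those of the deposited lists and their scale is not stated, so they were ranked only within a list, and the percentage after a score is the share of that list's peaks with this score or a lower one. The VDR site had 245 in BT474 with vehicle (96.1%), 139.5 in BT474 after EGF (86.3%) and 78 in SKBR3 after EGF (27.9%). The site in NR4A1 was 3.5 kb into the gene and was also within islands of both replicates in both lines. It ranked high in each of its lists, with scores of 444 in SKBR3 after EGF (96.4%), 213.5 in BT474 with vehicle (94.4%) and 428 in BT474 after EGF (98.9%). A neighbouring site in the same intron, 2.75 kb from the start, was found in both BT474 lists.

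Both ESRRG sites were deep in introns, 582 and 512 kb from the gene start, and outside the islands of both lines' replicates. The site with CGTATGC had scores of 307.5 (98.2%) in BT474 with vehicle, 529 (99.4%) after EGF and 207.5 (75.2%) in SKBR3 after EGF. The other had 99 (72.3%), 87.5 (72.1%) and 108 (42.1%) in the same lists. A further ESRRG site at 315 kb from the start was shared by the BT474 lists and did lie in an island of both BT474 replicates.

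Of the 21 sites, 9 held CGTNTGC or its reverse complement. It was found on either strand in 8.44% of all peaks in SKBR3 with vehicle, 15.9% in SKBR3 after EGF, 19.4% in BT474 with vehicle and 11.8% in BT474 after EGF. In the members' distinct peaks it was found in 0 of 4, 2 of 6, 8 of 21 and 12 of 72. The longer GCATACGA, which contains the reverse complement of that motif, was found at 4 of the 21 sites, in VDR, THRB, RORA and NR6A1. Its share of all peaks was 2.85%, 5.95%, 8.72% and 3.75% in the same order of lists. The letters GCATACG are also part of the P7 primer of Illumina libraries, and the part of the primer in these peaks was not tested. To compare the sites, each stretch below is turned so that the motif, in capitals, reads GCANACG, with 12 bases on either side. The NR4A1 match, outside the bases shared by its lists, and another match at the RORA site on chr15:60817712-60817941 are left out.
VDR, chr12:48346450-48346480, plus strand: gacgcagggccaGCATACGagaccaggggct
THRB, chr3:24411021-24411051, plus strand: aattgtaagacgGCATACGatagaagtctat
THRB, chr3:24529817-24529847, minus strand: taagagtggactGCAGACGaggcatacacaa
RORA, chr15:60817840-60817870, minus strand: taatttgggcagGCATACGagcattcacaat
RORA, chr15:61012563-61012593, plus strand: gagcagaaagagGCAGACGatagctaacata
NR6A1, chr9:127461189-127461219, minus strand: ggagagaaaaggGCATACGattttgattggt
NR5A2, chr1:200072860-200072890, plus strand: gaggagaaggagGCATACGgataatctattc
ESRRG, chr1:216799256-216799286, minus strand: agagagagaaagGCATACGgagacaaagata

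Both THRB sites were intronic and in islands of both BT474 replicates. The one 126 kb from the gene start had scores of 181.5 in BT474 with vehicle (91.7%) and 152 after EGF (88.2%), and the one 7.44 kb from the start had 30.5 (11.9%) and 26.5 (11.4%). At RORA the first site shown lay in islands of both BT474 replicates, with scores of 51 and 64.5, and the second did not, with 74.5 and 67.5. The NR6A1 site, with 255.5 with vehicle (96.6%) and 233 after EGF (94.8%), and the NR5A2 site, with 41 and 76, were intronic and outside islands. The hexamer AGGTCA or its reverse complement was found at 2 of the 21 sites, in NR4A1 and PPARA, and in 9.32%, 9.52%, 11.1% and 11.1% of all peaks in the 4 lists.

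Sites at the other members with a shared position had none of these motifs except the hexamer at PPARA. PPARG held 1 site, 65.1 kb from the gene start and 0.909 kb from a transcript start, with scores of 86.5 in BT474 with vehicle and 360.5 after EGF. RXRG held a site 5.22 kb upstream of its start, with 65.5 and 96.5, beside a stronger peak after EGF at 4.75 kb upstream with 388 (98.6%). RARB held 2 intronic sites, with 46 and 122.5 with vehicle and 144 and 155.5 after EGF. NR5A1 held 1 in an intron, with 64 and 295.5, and NR1H4 held 1, with 46 and 55. No condition had a second list, so none of these values was tested between vehicle and EGF.

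In islands of both BT474 replicates, but in the EGF list alone, were peaks at PPARD 0.567 kb into the gene (score 58.5), at NR1H2 55.4 kb from the start (102), at RARB 896 kb from the start (112), at RXRA 96.3 kb from the start (23.5), at NR2E1 9.96 kb upstream (35) and at NR6A1 157 kb from the start (106). Their ranks in the list ran from 8.0% at RXRA to 80.7% at RARB.

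The coregulators and the enzymes and carriers of receptor ligands were read in the same way, with the calls set against 28.8% and 35.6% of all windows. Of 20 coregulators of nuclear receptors, 4 were higher in SKBR3, 13 were higher in BT474 and 3 were not called, with a median log2 difference of -0.85. With regional scaling 10 of the 13 stayed higher in BT474, 1 was lost and 2 were higher in SKBR3, and of the 4 higher in SKBR3 1 stayed, 1 was lost and 2 turned. NCOA3, a coactivator that is amplified in some breast tumours, had 2.99 and 2.76 scaled reads per kb in SKBR3 and 8.42 and 10.3 in BT474 (-1.55, SE 0.12, edgeR adjusted p = 0.00177). MED1, the Mediator subunit that contacts liganded receptors, had 1.67 and 1.77 against 9.17 and 7.02 (-2.09, SE 0.15). NCOA2, a coactivator of the same family as NCOA3, was higher in SKBR3, at 4.81 and 4.68 against 1.71 and 1.65 (1.64, SE 0.05). With regional scaling the differences were smaller and still called, at -1.28 for NCOA3, -1.51 for MED1 and 0.98 for NCOA2. Copy number at these genes was not tested.

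Of 22 genes for the making, breakdown and transport of receptor ligands, 20 were tested, of which 11 were higher in SKBR3, 3 were higher in BT474 and 6 were not called (median 0.64). With regional scaling 6 of the 11 stayed higher in SKBR3, 3 were lost, and ALDH1A1 (-0.47) and DIO1 (-0.30) were higher in BT474, while HSD11B2 turned from -0.55 to 1.39. CYP24A1, whose product breaks down active vitamin D, had 6.86 and 6.73 scaled reads per kb in SKBR3 and was listed at 0 in both BT474 libraries, whereas VDR itself did not pass the test. CYP26A1, whose product breaks down retinoic acid, was listed at 0 in both SKBR3 libraries and had 0.212 and 0.315 in BT474. RDH10, which makes the precursor of retinoic acid, was higher in SKBR3 by 2.30 with scaling to the library and differed by 0.01 with regional scaling. The retinoic acid carrier CRABP2 was higher in SKBR3 by 0.64 and by 0.11, not called, with regional scaling. STRA6, a transporter of vitamin A, was higher in SKBR3 on both scales, by 1.01 and 1.63.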

How the data were processed

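H3K4me1 was mapped in 2 libraries each of SKBR3 and BT474 and HER2 in 1 library for each line and treatment, grouped by their labels. The 2 input samples were left out. The study's methods state that reads were aligned to hg19 with bowtie2, HER2 peaks were called per sample with MACS2 and islands per replicate with SICER, each against input, and blacklist and greylist regions were removed, whereas the labels list BWA 0.5.9, MACS 1.4.1 and SICER 1.1. The island files hold, as deposited, a count of reads per island without scaling. The HER2 files hold a deposited score per peak and no reads, so their depth is unknown.

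Windows were gene bodies of GENCODE 44 (mapped to GRCh37) with 10 kb on each side. An island across a window edge gave reads in proportion to its bases inside, rounded. Windows passing filterByExpr were tested with edgeR 4.0.16 (glmQLFit, TMM) in R 4.3.3, adjusted after Benjamini and Hochberg, threshold 0.05, with DESeq2 1.42.0 as an alternative. Regional scaling used an offset from the island reads in the 2 Mb on either side. The SDs and SEs rest on 2 libraries per line. Peaks counted when at least 1 bp overlapped. Interval functions and the test were checked on simulated data. Members, gene lists and rules were chosen with earlier results of these data known. Values per library are given for the 6 called members with the largest difference in each direction, for members with a HER2 peak at overlapping positions in at least 2 lists, and for members with a peak in an island of both replicates of its line. Further genes were named from the coregulator and ligand lists after their values were seen. Sequences were read from GRCh37. Alternatives are given in the closing section.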

Additional observations from a re-analysis of the deposited data

How the results depend on the processing

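Reads were counted inside called islands alone, and 2 libraries per line and 1 HER2 list per condition limit what can be tested. TMM scaling moved the median difference of all windows from -0.34 to -0.19. At the 25 called members, 311 single values were recomputed: 266 kept their direction and call, 40 kept the direction and lost the call, and 5 changed sign. These were NR5A2 with regional scaling (-0.18), THRA with overlapping islands counted whole (0.03), NR2C1 with islands under 2 kb left out (1.28), and NR3C2 (-8.41, a fitted value with no SKBR3 island there) and NR6A1 (-2.77) when the 2 kb on either side of the gene start were counted. The last 2 were called higher in BT474 there, and the other 3 were not called. ESRRG, NR1I3, NR3C1, PPARG, RARA, RARB, RORA, RXRG and THRB were called in each setting in which they were tested. The causes of these changes were not tested.

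The number of members higher in SKBR3, 11, was 6 within 2 kb of the gene start and 11 to 13 with a library left out. The number higher in BT474, 14, was 7 within 2 kb of the start, 9 with regional scaling and 5 to 16 with a library left out, with 5 and 7 without BT474 replicates 1 and 2. Over all windows 6166 were higher in BT474, and 3187 and 3112 without those replicates. Within 2 kb of the start 1842 windows were higher in SKBR3 and 3456 in BT474, against 4992 and 6166. With the replicate number as a block, 11 members were higher in SKBR3 and 9 in BT474. The numbers do not mark a shared culture or day in the labels, and deviations of same-numbered libraries had a correlation of -0.046 over windows, so the libraries share only a number.

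Median cover of the members in SKBR3, 19.6%, was 15.5% without islands under 2 kb, 9.12% with islands of at least the median reads per kb, and 18.8% to 20.4% with a library left out. In BT474, 13.8% became 12.6% and 9.97% under the same choices, 14.6% for gene bodies alone, and 13.3% to 14.3% with a library left out. Members with a covered start numbered 10 in SKBR3, and 19 with any transcript start (29.0% of all genes), 19 within 2 kb (44.8%), 5 with the canonical transcript (8.58%, chosen after seeing the data) and 11 to 12 with a library left out. In BT474 they numbered 9, and 21 (36.6%), 24 (58.1%), 10 (11.7%) and 10 to 13 under the same choices, so the canonical start turns the order of the lines.

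Members with a HER2 peak within 10 kb of the gene start numbered 0 in SKBR3 with vehicle (1.66% of all genes), 2 after EGF (1.97%), 5 in BT474 with vehicle (6.0%) and 12 after EGF (19.4%). With scores of at least the list median they numbered 1 and 2 in SKBR3. With 2520 peaks taken from each list by score, 6 members had a peak in each of the BT474 lists, against 6.85% of all genes with vehicle and 7.12% after EGF.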
